A study of Mus musculus with 10 samples.

Results

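The loci described here are those of 10 transcription factors that direct blood cell formation: Runx1, Runx3, Myb, Spi1, Cebpa, Cebpe, Gfi1, Ikzf1, Irf8 and Irf4. A 1 kb window of the lung methylome was taken as a member when it overlapped the RefSeq span of one of these genes on GRCm38, extended by 5 kb on each side. Of the 421759 windows that carried at least 20 methylation calls in each of the 10 mice, 370 met this rule, out of 380 deposited at these loci. Runx1 held 99 of them, Ikzf1 63, Runx3 60, Spi1 37, Myb 26, Irf8 22, Gfi1 21, Cebpa 17, Irf4 14 and Cebpe 11. Windows advance in steps of 500 bp, so neighbours share calls and are not independent. By position, 207 windows lay in introns, 76 within 1 kb of a start site (promoter windows), 46 on exons, 24 upstream and 17 downstream of the gene.

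DNA methylation was measured by SureSelect Methyl-seq, a capture method followed by bisulfite sequencing, in lung tissue of female BALB/c mice. The mice were 8 weeks old when purchased. The saline group (n = 3) was the control. The OVA group (n = 3) received ovalbumin with alum by injection (50 µg, days 0 and 7) and then intranasal ovalbumin (25 µg for 4 days from day 12), a standard model of allergic asthma, with vehicle by mouth. The DSE group (n = 4, labelled Herb) had the same ovalbumin treatment and was also given an ethanol extract of Descurainia sophia seeds by mouth (200 mg/kg daily from day 9 to the end of the challenge). The level of a window is the percentage of cytosine calls that were methylated. Summed over the overlapping windows of the whole table, each mouse had between 306656737 and 410836272 calls, with calls shared by neighbours counted in each. The median of a mouse was 569 to 779 calls over member windows and 343 to 504 over all windows, so member windows were covered more deeply. At the median of 664 calls over members and mice, a level of 50% has a 95% Wilson interval of 46.2 to 53.8%, and at 20 calls of 29.9 to 70.1%, counting error only. In bulk tissue a changed mix of cell types and a change of methylation within a cell type cannot be told apart.

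These factors bind DNA and switch whole gene programmes on or off as stem cells of the bone marrow commit to a lineage. Their own genes are commonly read from CpG-rich promoters that stay free of methylation in most tissues, while CpG-poor promoters and intronic enhancers lose methylation in the blood lineages that use them. Lung tissue holds resident and recruited leukocytes beside epithelium, endothelium and stroma, so every level below is an average over cells that do and do not use these genes.

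Runx1 and Runx3 each have a distal and a proximal promoter, and their letters show how unlike these are. The sequences are the 250 bases before each start site, 5′ to 3′ on the strand of the gene, taken from RefSeq (GRCm38.p6, the C57BL/6J reference rather than BALB/c), with every CpG in capitals.
Runx1 distal promoter, chr16:92826075-92826324, minus strand: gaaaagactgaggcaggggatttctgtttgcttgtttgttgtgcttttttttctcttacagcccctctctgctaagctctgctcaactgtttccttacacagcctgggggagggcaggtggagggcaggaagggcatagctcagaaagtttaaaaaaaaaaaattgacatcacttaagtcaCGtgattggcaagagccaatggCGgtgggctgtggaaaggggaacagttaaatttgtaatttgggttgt
Runx1 proximal promoter, chr16:92697330-92697579, minus strand: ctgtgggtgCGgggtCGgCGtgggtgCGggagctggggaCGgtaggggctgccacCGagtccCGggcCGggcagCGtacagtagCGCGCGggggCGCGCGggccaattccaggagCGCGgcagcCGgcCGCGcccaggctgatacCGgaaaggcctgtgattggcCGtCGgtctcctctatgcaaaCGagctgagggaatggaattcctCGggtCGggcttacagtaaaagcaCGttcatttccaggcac
Runx3 distal promoter, chr4:135120395-135120644, plus strand: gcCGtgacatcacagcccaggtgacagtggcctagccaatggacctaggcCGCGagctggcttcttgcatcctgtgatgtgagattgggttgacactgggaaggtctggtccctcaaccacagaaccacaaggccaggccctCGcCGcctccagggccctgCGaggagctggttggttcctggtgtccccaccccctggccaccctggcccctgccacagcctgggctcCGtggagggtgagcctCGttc
Runx3 proximal promoter, chr4:135152295-135152544, plus strand: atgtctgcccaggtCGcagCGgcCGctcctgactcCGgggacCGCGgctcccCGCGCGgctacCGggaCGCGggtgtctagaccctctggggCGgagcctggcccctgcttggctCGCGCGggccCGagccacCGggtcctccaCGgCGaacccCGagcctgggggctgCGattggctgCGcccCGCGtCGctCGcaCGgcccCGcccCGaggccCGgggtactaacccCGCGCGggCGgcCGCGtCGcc
The distal Runx1 promoter held 2 CpGs and the proximal one 27, and for Runx3 the numbers were 8 and 38. Over 32851 RefSeq promoters of this length the median was 6 CpGs (quartiles 2 and 16). The letters TGTGGT, the core of the RUNX binding motif, were searched on both strands and occurred 2 times in the distal Runx3 promoter and not in the other 3. Among all promoters, 14.0% held this motif.

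Inside the genes, 3 stretches of 250 bases were taken from long runs of windows called between saline and OVA mice. Each is the stretch with the most CpGs in its run. Levels were measured over 1 kb windows, so no difference was located to these letters. The stretches are given on the plus strand with CpGs in capitals. The Ikzf1 stretch is intronic, the Gfi1 stretch lies in a coding exon, and the Runx3 stretch crosses from an intron into a coding exon.
Ikzf1 intron, chr11:11687670-11687919: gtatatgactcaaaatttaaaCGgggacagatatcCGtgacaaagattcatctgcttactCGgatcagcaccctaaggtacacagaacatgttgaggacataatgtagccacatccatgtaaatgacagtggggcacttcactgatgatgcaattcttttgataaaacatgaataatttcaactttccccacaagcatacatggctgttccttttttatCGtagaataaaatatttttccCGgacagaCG
Gfi1 coding exon, chr5:107721495-107721744: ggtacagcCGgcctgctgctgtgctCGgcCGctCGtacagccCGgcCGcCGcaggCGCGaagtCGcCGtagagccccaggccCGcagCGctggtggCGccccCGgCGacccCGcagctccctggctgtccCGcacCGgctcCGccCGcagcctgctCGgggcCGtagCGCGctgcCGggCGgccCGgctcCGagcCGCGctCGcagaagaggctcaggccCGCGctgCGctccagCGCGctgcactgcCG
Runx3 intron and coding exon, chr4:135155187-135155436: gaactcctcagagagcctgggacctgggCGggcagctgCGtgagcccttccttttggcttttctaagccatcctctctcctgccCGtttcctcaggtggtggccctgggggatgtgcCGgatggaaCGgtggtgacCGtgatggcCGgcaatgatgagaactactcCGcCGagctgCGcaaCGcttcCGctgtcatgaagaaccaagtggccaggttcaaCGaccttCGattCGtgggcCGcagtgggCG
These stretches held 6, 38 and 17 CpGs respectively. The called windows over the Ikzf1 stretch had less methylation in OVA mice and those over the Gfi1 and Runx3 stretches more. For Ikzf1 the levels of a window over the stretch are given below. The levels given below for Gfi1 and Runx3 come from windows that do not span the stretches.

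The first question was where these genes differed between OVA-induced and saline-treated lungs. Methylation was lower in OVA mice at the distal promoters of Runx1 and Runx3, at the principal start of Spi1 and along the introns of Ikzf1. It was higher over exons of Gfi1, Spi1, Runx1 and Runx3. A window was called hypermethylated or hypomethylated when a logistic model of its calls gave an adjusted p under 0.01 over all windows and the pooled levels differed by at least 10 percentage points. These thresholds were taken over from the published methods, but their minimum number of CpGs in a region was not. With a minimum of 2 CpGs in a window, 90 instead of 91 windows were called in OVA vs. saline. In OVA vs. saline, 38 member windows were hypermethylated and 53 hypomethylated, together 24.6% of the 370. Among all 421759 windows, 4.83% were hypermethylated and 2.60% hypomethylated, together 7.43%. The median difference was -0.20 percentage points over the member windows and 0.75 over all windows. The called windows joined into 14 hypermethylated and 22 hypomethylated stretches, and 2 pairs among them consisted of windows with the very same calls, leaving 89 distinct sets.

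This model treats calls as independent and so leaves out the spread between mice. By limma, which uses that spread, 28 member windows were higher and 35 lower in OVA mice at an adjusted p under 0.05 over all windows, or 17.0% of the members against 3.74% of all windows (2.25% higher and 1.49% lower), and 56 of the 91 called windows were among them. A binomial test with overdispersion (an F test) called no window at either the member loci or elsewhere, although 130 member windows had an unadjusted p under 0.05. The 3 OVA mice did not overlap the 3 saline mice in 36 of the 38 hypermethylated and 50 of the 53 hypomethylated windows. Among all windows, 17939 of the 20360 hypermethylated and 9860 of the 10977 hypomethylated ones had no overlap (4.25% and 2.34% of all windows). With 3 mice against 3 an exact permutation test of a single window cannot give a p below 0.1, and with 3 against 4 not below 0.0571, so no window is called by that test.

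Averaged over the 38 hypermethylated windows, the level was 28.7% ± 2.13 in saline mice and 43.9% ± 2.68 in OVA mice (SD, n = 3 each). Over the 53 hypomethylated windows it was 65.7% ± 0.669 and 50.1% ± 3.27. These averages are over windows chosen for their difference and are given as a description. In DSE mice the same windows averaged 43.9% ± 2.85 and 51.1% ± 2.47 (SD, n = 4). The saline mice are common to both comparisons, so the choice of windows bears on this value too.

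By position, 17 of 46 exon windows were hypermethylated and 1 hypomethylated, against 4.52% and 2.13% of the exon windows of all genes with a curated transcript. Of 76 promoter windows, 2 were hypermethylated and 15 hypomethylated, against 2.20% and 1.44%. Of 207 intron windows, 19 were hypermethylated and 34 hypomethylated, against 6.48% and 3.45%. The hypermethylated member windows held a median of 26 CpGs and had a median saline level of 25.2%, against 12 CpGs and 39.6% for all hypermethylated windows of the table. The hypomethylated ones, with 12 CpGs and a saline level of 66.4%, were close in both measures to all hypomethylated windows (11 CpGs and 66.3%). Of the 79 member windows under 20% in saline, 11 were hypermethylated and 0 hypomethylated, against 2.51% and 0.0543% of all windows in that range. Of the 254 between 20 and 80%, 27 were hypermethylated and 50 hypomethylated, against 7.65% and 3.91%. This range held 68.6% of the member windows and 55.3% of all windows. Of the 37 over 80%, 0 were hypermethylated and 3 hypomethylated, against 0.146% and 1.91%.

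**Figure D1:**
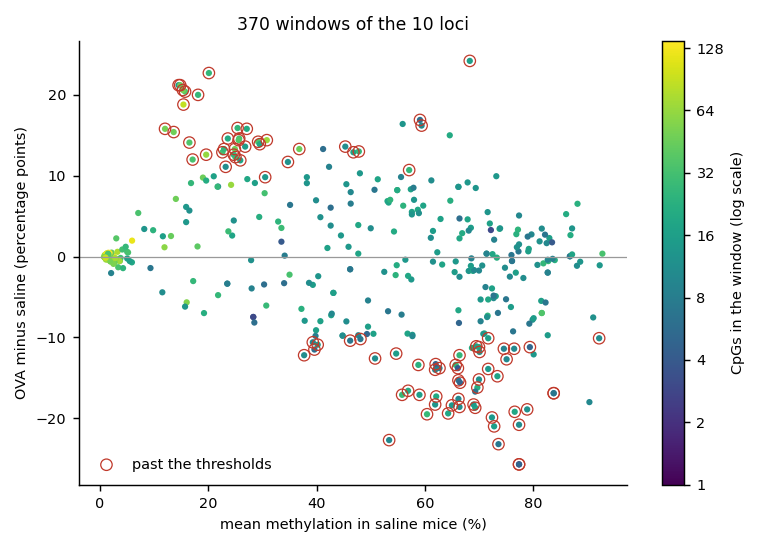
Mean methylation of each of the 370 member windows in saline mice (x axis, percent) against its difference of group means between OVA and saline mice (y axis, percentage points), coloured by the CpGs in the window on a log scale and ringed where past the thresholds. The 38 hypermethylated windows have a median saline level of 25.2% and the 53 hypomethylated windows one of 66.4%.

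The mean over all windows of a locus was tested by limma over 32821 genes, of which 12.5% passed an adjusted p of 0.05 in OVA vs. saline (9.18% higher and 3.28% lower). Of the 10 member loci, 3 passed: Ikzf1 and Cebpe were lower and Runx3 was higher. In DSE vs. saline 18.8% of genes passed (14.3% higher and 4.47% lower), and 4 members did, with Ikzf1 and Cebpe lower and Runx3 and Gfi1 higher. In DSE vs. OVA 0.0274% of genes passed and none of the members did, and 1 member locus had an unadjusted p under 0.05. The median difference of the 10 loci in OVA vs. saline was -0.73 percentage points, against 1.02 over all genes.

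**Figure D2:**
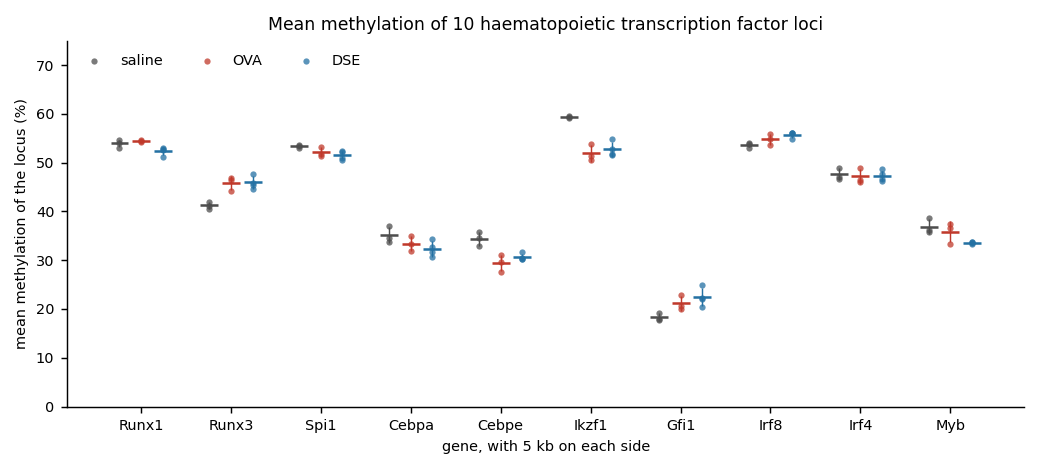
Mean methylation (percent) over the windows of each of the 10 loci, with a point for every mouse and a bar and line for the mean and SD of the saline, OVA and DSE groups. Ikzf1 shows the widest gap, with saline mice at 59.1 to 59.5% and OVA mice at 50.6 to 53.9%, while the Irf4 mice of the 3 groups overlap.

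Runx1 and Myb act in stem and progenitor cells, and Runx3 is described beside its relative Runx1. Runx1 is required for blood stem cells to arise, Runx3 is used by cytotoxic T cells and dendritic cells, and Myb keeps progenitors dividing. At Runx1 (gene ID 12394, chr16:92601466-92826074) 12 windows were hypermethylated and 13 hypomethylated in OVA mice, and the locus mean did not move past the test (difference 0.60 ± 0.76 percentage points (SE), adjusted p = 0.623 by limma). The hypomethylated windows included an unbroken run of 6 around the distal start site (chr16:92824001-92827500). Of these, the windows starting at 92824001, 92826001 and 92826501 did not pass limma in OVA vs. saline (adjusted p = 0.0538, 0.0619 and 0.136). In the window over that start site the saline mice were at 62.5, 66.1 and 57.8%, the OVA mice at 50.1, 42.5 and 42.0%, and the DSE mice at 45.9, 39.6, 48.6 and 46.0%. Every OVA and DSE mouse was below every saline mouse, and the limma adjusted p was 0.0332 for OVA vs. saline and 0.0185 for DSE vs. saline.

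The proximal Runx1 start site, with 75 CpGs in its window, stayed near 0 in all mice: its group means were 1.35% ± 0.596 in saline, 0.967% ± 0.237 in OVA and 1.12% ± 0.178 in DSE. The stretches on either side of it were hypermethylated (chr16:92694501-92696500 and chr16:92699001-92700500). In the exonic window chr16:92695001-92696000 the saline mice were at 12.6, 8.95 and 14.3%, the OVA mice at 25.7, 27.4 and 30.0%, and the DSE mice at 24.1, 30.8, 31.1 and 34.0%. Here too the saline mice stood apart from both other groups (limma adjusted p = 0.0223 and 0.00947). Thus the distal start lost methylation while the flanks of the proximal start gained it within a single gene. The largest Runx1 difference in OVA vs. saline, 20.7 percentage points in the intronic window chr16:92610501-92611500, rested on 27 to 85 calls a mouse, did not pass limma (adjusted p = 0.0874), and was no longer called without OVA replicate 1 (16.4) or saline replicate 2 (13.5).

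Runx3 (gene ID 12399, chr4:135120645-135177990) showed the same contrast between its promoters. Around the distal start 3 windows were hypomethylated, a place where the annotation also has the noncoding gene Gm16225. In the window over the start the saline mice were at 73.5, 69.7 and 66.0%, the OVA mice at 56.2, 49.5 and 54.7%, and the DSE mice at 62.7, 60.2, 58.2 and 47.9%. The OVA mice were all lower than the saline mice (limma adjusted p = 0.0487), and so were the DSE mice, without passing limma (0.0619). The proximal start, with 130 CpGs in its window, was at 2.38% ± 0.787, 2.51% ± 1.04 and 2.68% ± 0.524 in saline, OVA and DSE mice.

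Runx3 had 17 hypermethylated windows, the most of any member, on both sides of the proximal start. Of these, 8 formed the run chr4:135154501-135159000 downstream of it, from which the stretch above is taken. Close to the 3′ end, in the exonic window chr4:135174501-135175500 with 27 CpGs, the saline mice were at 17.7, 18.9 and 17.6%, the OVA mice at 36.3, 37.8 and 40.0%, and the DSE mice at 34.3, 48.5, 39.4 and 41.3%. Every OVA and DSE mouse was above the saline mice (limma adjusted p = 0.0207 and 0.00804). The locus mean was 41.9, 41.2 and 40.6% in saline mice, 44.2, 46.4 and 46.8% in OVA mice and 44.7, 47.7, 45.5 and 45.9% in DSE mice. It was 4.58 ± 0.99 percentage points (SE) higher in OVA than in saline mice (adjusted p = 0.0196) and 4.74 ± 0.93 higher in DSE than in saline mice (0.0102). The OVA vs. saline call was lost when saline replicate 2 or 3, or OVA replicate 2 or 3, was left out (adjusted p = 0.0552 to 0.0733).

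Myb (gene ID 17863, chr10:21124930-21160984) had 5 hypomethylated windows in OVA mice, in the runs chr10:21153001-21155000 and chr10:21156501-21158000 in the 5′ part of the gene, and no hypermethylated one. None of the 5 passed limma, and the largest, chr10:21154001-21155000, had only 27 to 68 calls a mouse and was lost without OVA replicate 2 or saline replicate 2. The window chr10:21154501-21155500, which overlaps it, went the other way. Every OVA mouse was above the saline mice there, with a pooled difference of 9.81 percentage points, just short of the window rule (limma adjusted p = 0.0750). The start site was at 0.867 to 1.11% in the 3 group means. The Myb locus mean was 36.9% ± 1.56 in saline, 35.9% ± 2.14 in OVA and 33.6% ± 0.228 in DSE mice, and no comparison passed (adjusted p = 0.0520 for DSE vs. saline).

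**Figure D3:**
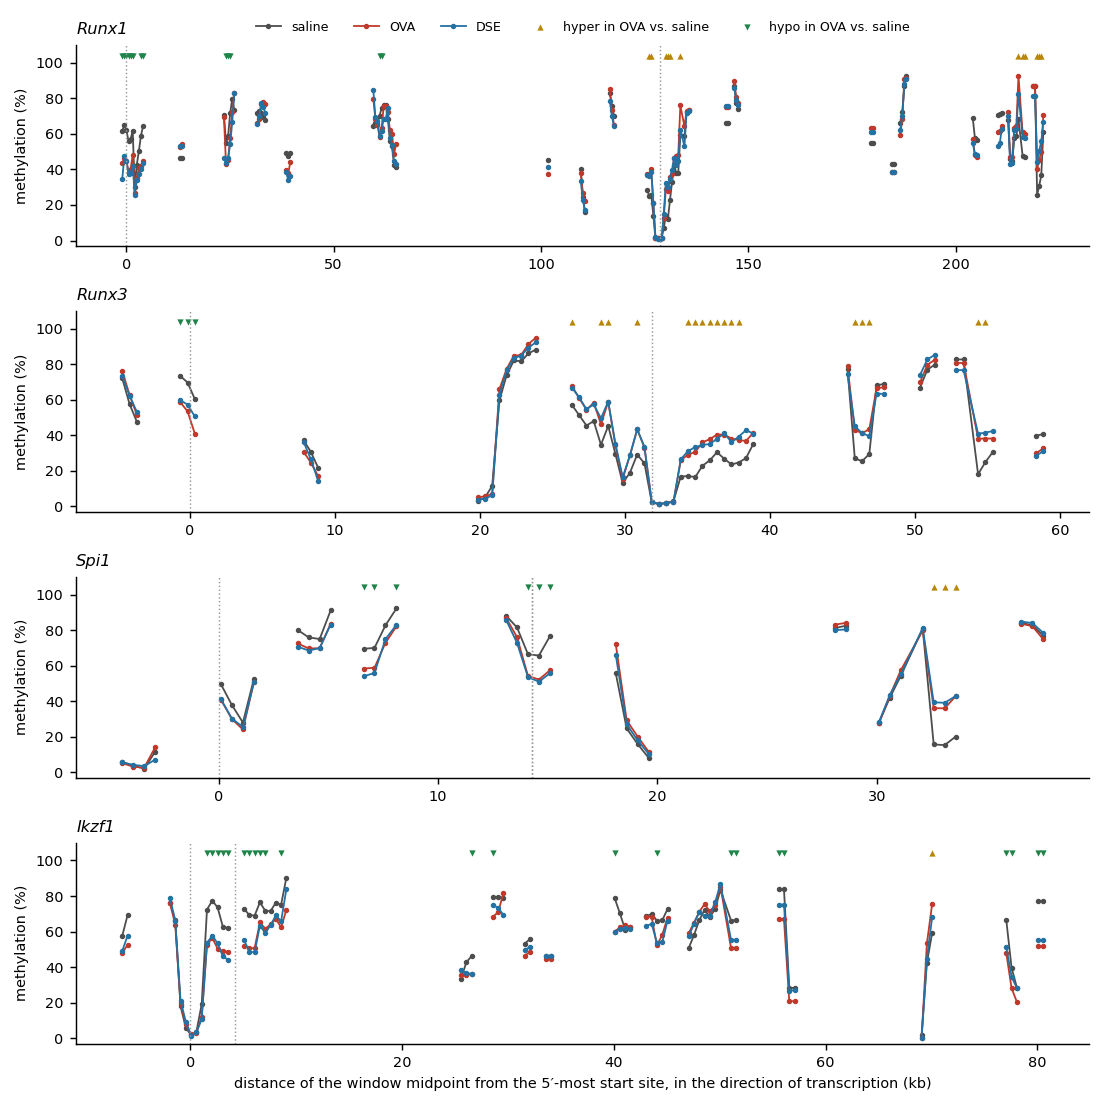
Mean methylation (percent) of every window along Runx1, Runx3, Spi1 and Ikzf1 in saline, OVA and DSE mice, by distance of the window midpoint from the 5′-most start site (kb), with dotted lines at start sites and triangles at windows called in OVA vs. saline. At the distal starts of Runx1 and Runx3 the saline points lie above the others, and in the last exon of Spi1 they lie below.

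Spi1, Cebpa, Cebpe and Gfi1 steer the myeloid branch. Spi1 encodes PU.1, an ETS factor of macrophages and B cells. At Spi1 (gene ID 20375, chr2:91082374-91115759) 6 windows were hypomethylated and 3 hypermethylated in OVA mice, and all 9 passed limma. The hypomethylated window over the principal start had saline mice at 68.2, 64.5 and 66.5%, OVA mice at 59.0, 53.3 and 50.5%, and DSE mice at 54.1, 55.0, 52.6 and 52.3%. The 3 hypermethylated windows covered the last exon (chr2:91114501-91116500). There, in the window chr2:91115001-91116000 with 51 CpGs, the saline mice were at 12.7, 14.0 and 19.2%, the OVA mice at 26.4, 38.7 and 42.8%, and the DSE mice at 35.5, 39.2, 38.6 and 43.0%. In both windows the saline mice were separated from the OVA and the DSE mice, in opposite directions, and the locus mean moved little (-1.23 ± 0.80 percentage points (SE), adjusted p = 0.323).

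Cebpa, needed for granulocyte and monocyte progenitors and also active in lung epithelium, had no called window in OVA vs. saline (gene ID 12606, chr7:35119293-35121928). Its start site, with 124 CpGs in the window, was at 1.52 to 1.99% in the 3 group means. In DSE vs. saline 1 window upstream was hypermethylated and 3 downstream were hypomethylated, and of the latter 2 held identical calls. Cebpe, a factor of late granulocytes including eosinophils, had a methylated start site (gene ID 110794, chr14:54710363-54712174). The saline mice were at 82.5, 80.2 and 81.9% there, the OVA mice at 74.2, 72.0 and 77.5%, and the DSE mice at 70.3, 73.0, 72.0 and 74.6%. The OVA and DSE mice were all lower than the saline mice, by less than the 10 percentage points of the window rule, and limma gave 0.0687 for OVA vs. saline and 0.0207 for DSE vs. saline. The Cebpe locus mean was 35.8, 32.9 and 34.5% in saline mice, 27.6, 29.6 and 31.0% in OVA mice and 30.4, 31.7, 30.3 and 30.2% in DSE mice. Of the 11 windows in this mean, 4 lay upstream and 3 downstream of the gene. The 2 windows called in OVA vs. saline were among the downstream ones (chr14:54705001-54706500). Without the 5 kb, 9 member loci could be tested, and Cebpe was not among them. The locus mean differed by -5.00 ± 1.01 percentage points in OVA vs. saline (SE, adjusted p = 0.0158) and by -3.73 ± 0.95 in DSE vs. saline (0.0250). Neither call held on the mean of M-values (log-ratios of calls, adjusted p = 0.0658 and 0.0541), and the OVA vs. saline one was lost when the calls of the locus were pooled (-1.83 percentage points, 0.305). The DSE vs. saline one was also lost without saline replicate 1 or 3 or DSE replicate 3 or 4 (0.0536 to 0.0827).

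Gfi1 is a zinc-finger repressor needed for neutrophils and lymphoid cells. Both of its annotated starts (gene ID 14581, chr5:107716655-107725805) were at 1.56 to 2.67% in the 3 groups. In OVA mice 5 windows were hypermethylated, a single run over its exons (chr5:107719501-107722500) with 118 CpGs, and 1 window upstream was hypomethylated. In the exonic window chr5:107720001-107721000 the saline mice were at 13.3, 15.0 and 15.2%, the OVA mice at 31.6, 39.6 and 36.0%, and the DSE mice at 33.9, 35.8, 33.8 and 38.7%. All OVA and DSE mice had more methylation there than any saline mouse (limma adjusted p = 0.0191 and 0.00711). The Gfi1 locus mean was 18.3% ± 0.809, 21.1% ± 1.56 and 22.4% ± 1.85 in saline, OVA and DSE mice, and passed in DSE vs. saline (difference 4.14 ± 1.05 percentage points (SE), adjusted p = 0.0249), but not in OVA vs. saline (0.116). The former call was lost on the mean of M-values (0.0973) and without saline replicate 2 or 3 or DSE replicate 2 (0.0535 to 0.0818), and the latter was gained with the gene span alone, without the 5 kb (5.93 percentage points, 0.00890).

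Ikzf1 encodes Ikaros, a zinc-finger factor that lymphoid development depends on, and it showed the largest locus difference of the members (gene ID 22778, chr11:11684962-11772930). The locus mean was 59.4, 59.5 and 59.1% in saline mice, 53.9, 51.3 and 50.6% in OVA mice and 52.9, 51.7, 54.8 and 51.6% in DSE mice. The saline mice lay close together and above all OVA and DSE mice. The difference was -7.41 ± 1.09 percentage points (SE) in OVA vs. saline (adjusted p = 0.00583), with 0.948% of genes below it, and -6.58 ± 1.02 in DSE vs. saline (0.00471).

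At Ikzf1, 23 of 63 windows were hypomethylated in OVA mice and 1 was hypermethylated. They formed 11 stretches along the gene, with 11 windows between chr11:11687001 and chr11:11695000, downstream of the CpG-rich start and around a further annotated start. In the window nearest to the latter, chr11:11689001-11690000, the saline mice were at 58.5, 61.7 and 65.7%, the OVA mice at 55.5, 46.9 and 43.6%, and the DSE mice at 48.6, 41.7, 46.2 and 40.2%. The saline mice were above all others, and limma gave 0.0753 for OVA vs. saline and 0.0199 for DSE vs. saline. The CpG-rich start, with 139 CpGs in its window, was at 1.44 to 2.18% in the 3 group means. Across the stretch printed above, the window chr11:11687501-11688500 fell from a mean of 77.4% in saline to 56.5% in OVA mice (limma adjusted p = 0.0229), and was at 57.6% in DSE mice. The largest difference, -25.2 percentage points, was in the intronic window chr11:11765501-11766500, whose calls were the very same as those of the next window and so came from the part they share, with 1 CpG in the reference, below the published minimum for a region, and 74 to 208 calls a mouse. Its levels were 81.1, 72.3 and 78.8% in saline mice, 56.7, 49.0 and 49.3% in OVA mice and 48.6, 53.3, 65.9 and 52.3% in DSE mice. The saline mice were again above all others.

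Irf8 and Irf4 had the fewest called windows over the 3 comparisons. Irf8, a factor of monocytes and dendritic cells (gene ID 15900, chr8:120736358-120756694), had no called window in OVA vs. saline and 1 hypermethylated upstream window in DSE vs. saline. There the saline mice were at 51.2, 55.4 and 53.4% and the DSE mice at 65.7, 60.4, 67.2 and 65.7%, with OVA mice at 56.0, 66.6 and 57.4%. The saline mice were below all others, but limma did not call the window (adjusted p = 0.0524 for DSE vs. saline). The 5′ start of Irf8 was at 0.707 to 1.07% in the group means. The window nearest to its further annotated start was at 73.5, 66.5 and 66.1% in saline, OVA and DSE mice and was not called. Irf4, used by plasma cells, helper T cells and alternatively activated macrophages (gene ID 16364, chr13:30749233-30766981), had no called window in any of the 3 comparisons. Its start was at an intermediate level of 35.0% ± 1.51, 32.8% ± 1.55 and 35.0% ± 1.77 in saline, OVA and DSE mice, and its locus mean differed by -0.44 ± 1.02 percentage points (SE) between OVA and saline mice (adjusted p = 0.797).

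**Figure D4:**
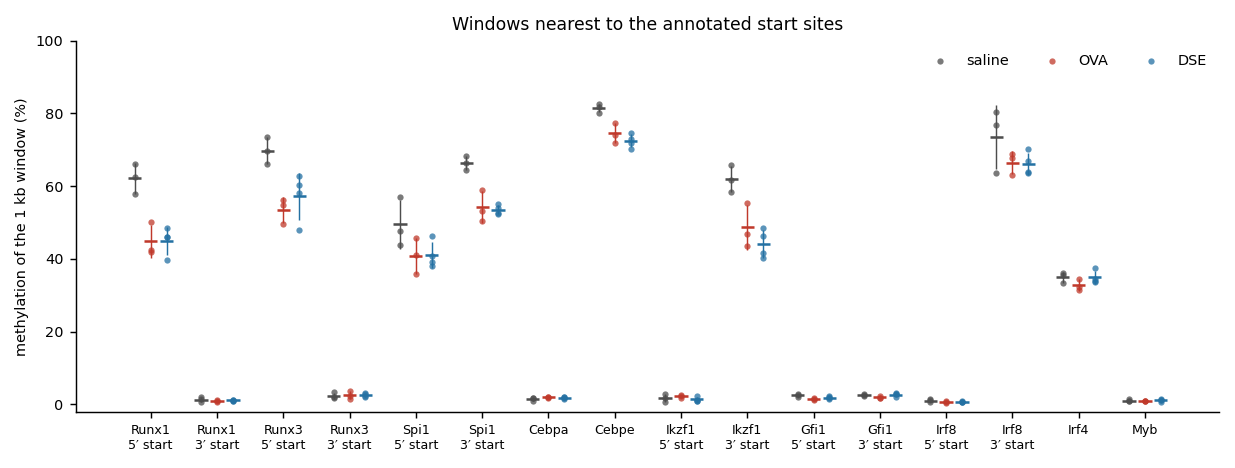
Methylation level (percent) of the window nearest to each annotated start site of the 10 genes, with a point for every mouse and a bar and line for mean and SD by group. The proximal starts of Runx1 and Runx3, the starts of Cebpa, Gfi1 and Myb and the 5′ starts of Ikzf1 and Irf8 lie near 0 in all mice. At the distal starts of Runx1 and Runx3, the principal start of Spi1 and the downstream start of Ikzf1 the saline mice lie above the OVA mice.

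The second question was where the DSE mice differed from the OVA mice. Of the 370 windows, 7 were called, 2 hypermethylated and 5 hypomethylated, which is 1.89% against 1.59% of all windows (0.888% and 0.699% by direction). Without OVA replicate 1 the count was 16, with 5 hypermethylated and 11 hypomethylated, against 1.65% of all windows. By limma, 2 member windows passed, both lower, against 0.418% of all windows (0.347% higher and 0.0711% lower). The DSE mice were separated from the OVA mice in all 5 hypomethylated windows and in neither of the hypermethylated ones. Over the whole table, 2160 of the 2948 hypomethylated and 2986 of the 3746 hypermethylated windows were without overlap (0.512% and 0.708% of all windows). Both windows that passed limma lay at Myb and overlap each other. In chr10:21154501-21155500 the saline mice were at 56.8, 55.6 and 54.5%, the OVA mice at 70.0, 60.8 and 65.6%, and the DSE mice at 46.1, 49.7, 46.6 and 46.0%. The OVA mice were above and the DSE mice below the saline mice, and the pooled difference of DSE minus OVA was -18.2 percentage points (limma adjusted p = 0.0247, and 0.0238 in the neighbouring window).

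The pattern that the study looked for, a change in OVA mice with the opposite change in DSE mice, occurred in 3 member windows. A Runx1 intronic window (chr16:92692001-92693000) was hypermethylated in OVA mice and hypomethylated in DSE vs. OVA (difference -16.0 percentage points). It was the only member with this order of signs, against 0.182% of all windows. The levels were 57.6, 58.3 and 61.3% in saline mice, 73.1, 71.1 and 83.7% in OVA mice and 54.1, 69.5, 62.0 and 63.4% in DSE mice, with as few as 26 calls in a mouse and no limma call (adjusted p = 0.0679 and 0.274). The OVA vs. saline call was lost when any saline mouse (16.7 to 18.6 percentage points) or OVA replicate 3 (12.5) was left out, and the DSE vs. OVA call without DSE replicate 1 (-12.0) or OVA replicate 3 (-11.1). The OVA mice stood above both other groups. The reverse, hypomethylation in OVA and hypermethylation in DSE, occurred in 2 windows, against 0.122% of all.

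Those 2 windows lay at the distal Runx3 promoter and downstream of Cebpe. In the Runx3 window chr4:135120501-135121500 the saline mice were at 66.1, 62.0 and 53.2%, the OVA mice at 42.5, 37.4 and 42.9%, and the DSE mice at 56.9, 61.2, 47.3 and 37.0%. DSE replicate 4 lay below the OVA mice, so the groups overlapped, and limma gave 0.638. Its DSE vs. OVA difference of 10.6 percentage points was no longer called without DSE replicate 1 (7.60), DSE replicate 2 (7.65) or OVA replicate 2 (8.51). In the Cebpe window chr14:54705001-54706000 the levels were 34.5, 34.1 and 44.5% in saline mice, 19.2, 24.5 and 32.9% in OVA mice and 39.5, 47.5, 48.5 and 31.7% in DSE mice. The DSE and OVA mice overlapped here as well (limma adjusted p = 0.232), and the OVA vs. saline call was lost without OVA replicate 1 (-9.97 percentage points) or saline replicate 3 (-8.87). The remaining 2 windows, in an intron of Runx1 (chr16:92802001-92803000, difference -21.6 percentage points, 22 to 90 calls a mouse) and downstream of Cebpa (chr7:35123001-35124000, difference -10.0), did not differ between OVA and saline mice by the window rule and did not pass limma (0.159 and 0.164). The former was lost without OVA replicate 2 (-20.2), and the latter without DSE replicate 3 or 4 or OVA replicate 2 or 3 (-9.00 to -9.88).

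**Figure D5:**
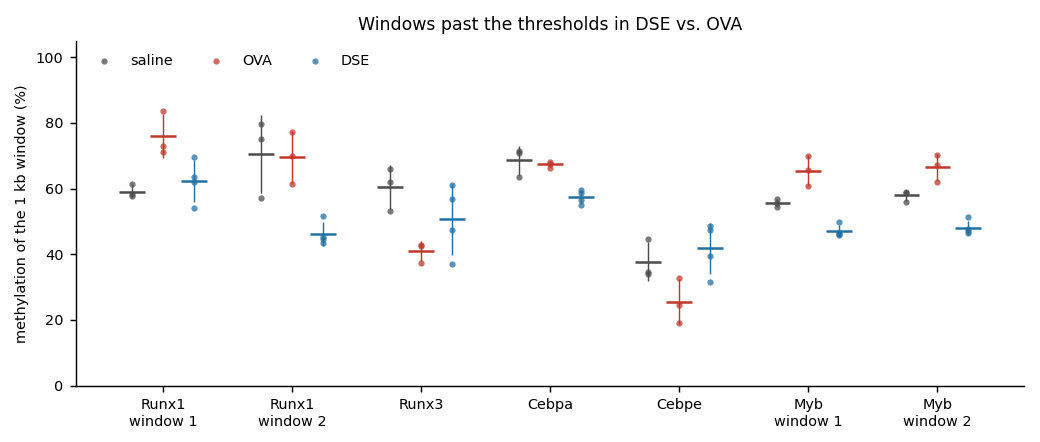
Methylation level (percent) in every mouse for the 7 member windows called in DSE vs. OVA, by group, with the mean and SD of each group as a bar and line. In the 2 Myb windows the DSE mice lie below both other groups, and in the Runx3 and Cebpe windows the DSE and OVA mice overlap.

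DSE mice were also compared with saline mice, a comparison that shares its controls with OVA vs. saline. Here 37 member windows were hypermethylated and 56 hypomethylated, together 25.1% against 8.11% of all windows (5.02% and 3.09% by direction). By limma 38 were higher and 51 lower, 24.1% against 7.25% of all windows (4.58% and 2.68%). By gene the hypermethylated and hypomethylated numbers were 11 and 20 at Runx1, 17 and 3 at Runx3, 0 and 21 at Ikzf1, 4 and 0 at Gfi1, 3 and 5 at Spi1, and 0 and 4 at Myb. Some calls separate the comparisons only by the threshold. In the Runx1 intronic window chr16:92615001-92616000 the means were 71.0% in saline, 61.5% in OVA and 54.7% in DSE mice, and the OVA vs. saline difference of -9.65 percentage points fell just short.

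A list of 45 other haematopoietic transcription factors gives the surroundings of these 10. In OVA vs. saline 4 of their loci were higher and 7 lower by limma, against 9.18% and 3.28% of all genes, and the median difference was 0.14 percentage points. Those higher were Gata2, which mast cells and progenitors use (6.26 ± 1.08 percentage points, SE), Tal1, Maf and Ebf1. Among those lower were Elf1 (-5.06 ± 0.79) and Nfe2 (-4.85 ± 1.21). In DSE vs. saline 5 were higher and 8 lower, against 14.3% and 4.47% of all genes, and in DSE vs. OVA none passed. Their start-site windows were under 20% in saline in 55 of 64 cases, against 8 of 14 for the members.

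Markers of some of the cell types that lung tissue holds differed between the same groups. Of 10 pan-leukocyte loci, 5 were lower in OVA mice and 0 higher (median -5.12 percentage points), Ptprc among them (-9.74 ± 1.45, SE), and the mean over their 13 start-site windows was 40.4 to 41.4% in saline mice, 30.6 to 35.9% in OVA mice and 31.2 to 33.1% in DSE mice. Of 5 eosinophil loci, 3 were lower, led by Prg2 (-12.6 ± 1.83), and the mean over the 5 was 60.7 to 63.2% in saline, 55.9 to 57.8% in OVA and 54.1 to 57.3% in DSE mice. Of 6 endothelial loci, 4 were higher, led by Tek (11.1 ± 1.73), with means of 45.2 to 47.7%, 50.4 to 53.4% and 49.2 to 52.0%. Among lung epithelial loci 2 of 9 were higher (Sftpc and Scgb1a1), and of the 2 neutrophil loci Cxcr2 and of the 4 macrophage loci Mrc1 was lower, while none of the 4 T cell and 4 B cell loci passed. Their part in the differences at the 10 loci was not tested. As a check of the tissue, 4 of 6 start-site windows of lung epithelial genes were under 20% in saline mice, against 0 of 5 for liver genes. Of the 4 liver loci, which lung is not expected to use, Apoa1 (4.57 ± 1.00, SE) and Ttr (4.09 ± 1.17) were also higher in OVA mice, and the median over the 4 was 2.28 percentage points, against 1.02 over all genes.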

How the data were processed

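Lung DNA of 10 BALB/c mice (3 saline, 3 OVA, 4 DSE) was profiled by SureSelect Methyl-seq. The processing notes of the labels name cutadapt 1.10, Bismark 0.19.0, methylKit 1.0.0 and the mm10 build, and the authors deposited counts of methylated cytosines, unmethylated cytosines and coverage per mouse in 1000 bp windows with a step of 500 bp. Coverage counts calls at CpGs, not independent molecules, so a read over several CpGs gives several calls.

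From these counts a percentage was computed for each mouse and window. Windows needed 20 calls in each mouse (421759 of 446336). Each window was tested by a likelihood ratio test of a logistic model without covariates, with Benjamini-Hochberg adjustment over all windows (adjusted p under 0.01, pooled difference of at least 10 percentage points). limma 3.58.1 (R 4.3.3) was fitted to M-values of all windows with all 10 mice, and to the mean percentage of every RefSeq gene span with 5 kb on each side and at least 3 windows. Exact permutation tests were two-sided. Scripts were tested on simulated data.

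The members and gene lists were chosen with earlier results of these data known. Windows were named for each start site, for the largest difference of each member and comparison without overlap, for opposite signs, and for the 3 smallest limma p-values of a comparison; other examples were chosen after their values were seen. The sources name no batches. The p-values of limma, the F test and the permutation tests measure the spread between these mice, and those of the logistic model leave it out. No mouse pair of a group agreed within sampling noise (mean chi-square 2.64 to 3.76). Promoter sequences were matched for 8 of the 10 members.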

Additional observations from a re-analysis of the deposited data

Results flagged for a closer look

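In 46 sets of 4 DSE mice (locus means and named windows), 3 held a mouse that lay far from the other 3, where chance at 1 in 20 would give about 2.30. At the Cebpe locus DSE replicate 2 was highest at 31.7%, with the others at 30.2, 30.3 and 30.4%. At the Irf8 locus DSE replicate 1 was lowest at 54.8%, with the others at 56.1, 56.1 and 56.1%. In the exonic Gfi1 window chr5:107720501-107721500 DSE replicate 1 was lowest at 34.0%, with the others at 43.2, 44.1 and 44.2%. Even so this mouse lay above the saline mice, which were at 13.0, 11.6 and 19.6%.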

How the results depend on the processing

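The window counts rest on a test without spread between mice. With overdispersion (an F test) member windows numbered 0 in all 3 comparisons, although 130, 25 and 154 had an unadjusted p under 0.05 in OVA vs. saline, DSE vs. OVA and DSE vs. saline. In the same order, limma with an adjusted p under 0.01 and 10 percentage points gave 0, 0 and 5 (174, 27 and 165 with an unadjusted p under 0.05), limma at 0.05 gave 63, 2 and 89, a difference of 20 percentage points gave 10, 1 and 17, and windows that do not overlap gave 46, 5 and 47 of 185. Leaving out single mice gave 87 to 115, 5 to 16 and 91 to 108, and 16 came without OVA replicate 1. The windows with at least 2 CpGs, an alternative chosen after seeing the data, gave 90, 7 and 92.

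For loci, leaving out single mice gave 2 to 3 calls, 0 to 0 and 2 to 5. In DSE vs. OVA, pooling the calls of a locus gave 3 calls (Gfi1, Irf4 and Myb, with 24.5% of all genes called) and turned the Myb difference to 2.50 percentage points (limma adjusted p = 0.0274) from -2.24. The cause was not tested. In DSE vs. saline, 4 became 2 on M-values, 7 with windows that do not overlap, and 2 without saline replicate 3 (Runx3 and Ikzf1 remained).

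Correlations of deviations were -0.0273 to 0.0785 between mice with the same replicate number and -0.0574 to 0.0430 between mice with different numbers. So few mice cannot show whether the replicate numbers pair them. With the replicate block the windows numbered 92, 5 and 95, and the DSE vs. saline loci 2 (Runx3 and Ikzf1). For named windows, only calls of the main test were followed: 658 alternative values kept the call and 155 lost it. For loci, all 10 members were followed in all 3 comparisons, though only 3, 0 and 4 of them were called in the main test. There 477 values kept their side of the threshold, including loci called in neither setting, and 17 lost the call. The 2 tallies are therefore not comparable. Another 12 locus values gained it, and 1 was called with the opposite sign. Direction was not checked for locus values called in neither setting.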
